A study of Canis lupus familiaris with 30 samples.

Results

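CD28, ICOS, CD40LG, TNFRSF18, IL2RA, CD4 and LTB, genes of T cell costimulation and activation, were followed in blood cells of dogs on 2 diets. They were taken as all non-control probes annotated to a RefSeq transcript of these genes, which gave 7 of the 25950 genes and accessions tested and 10 of the 43603 probes on the array, 1 each for CD28, ICOS, TNFRSF18 and CD4 and 2 each for CD40LG, IL2RA and LTB. All 10 passed the filter on dim probes. Peripheral blood mononuclear cells (PBMC), the lymphocytes and monocytes left after density centrifugation of blood, came from adult dogs fed for 9 weeks on a raw red meat diet high in protein and fat (7 dogs) or on a premium kibble with carbohydrate (8 dogs), and were sampled at weeks 0, 3, 6 and 9, week 0 being the start of feeding. Breed, age and the dog behind each array are not in the labels used here.

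RNA was compared on 30 two-colour arrays, each carrying 1 sample in Cy3 and 1 in Cy5. On 14 arrays meat met kibble of the same week (3, 3, 4 and 4 arrays at weeks 0, 3, 6 and 9), and on 16 a later week met an earlier week of the same diet (4 arrays each for week 9 over week 0 and week 6 over week 3, in each diet). Every group of diet and week was present in 7 or 8 channels, whereas the labels state 6 biological replicates, so some dogs may have been hybridised more than once and p-values measure the spread between arrays. Each week had a separate slide for its meat-over-kibble arrays, so week and slide cannot be told apart for them, and the arrays with both diets and those with both weeks were scanned in separate sessions. An array is named here by its Cy3 and then its Cy5 sample. A pair of arrays on slide 1 stood apart, kibble week 0/kibble week 9 array 1 with a median Cy3 background of 159.5 units against 18 to 24.5 on the other 28 arrays, and meat week 9/meat week 0 array 1 with 42703 and 43411 probes well above background in Cy3 and Cy5 against at most 29117 and 31557.

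A T cell answers antigen when its receptor signal is joined by a second, costimulatory signal. CD28, which binds CD80 and CD86 on antigen-presenting cells, and ICOS, the inducible costimulator of its family, give that signal. TNFRSF18 (GITR) is a costimulatory receptor of the tumour necrosis factor receptor family, abundant in human and mouse on regulatory and activated T cells. CD40LG, displayed by activated helper T cells, engages CD40 on B cells and macrophages, and LTB anchors lymphotoxin to the lymphocyte surface. IL2RA (CD25) is the alpha chain that gives the interleukin-2 receptor its high affinity, and CD4 is the coreceptor for class II molecules on helper T cells, which in dogs is also carried by neutrophils.

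The 7 genes spanned most of the intensity range of the array. The brightest probe of LTB was among the brightest of all, brighter than 98.3% of the probes kept, and CD40LG, CD4 and CD28 exceeded 76.2%, 65.7% and 65.0%. IL2RA, ICOS and TNFRSF18 lay lower, above 40.3%, 38.7% and 26.8%. CD28, CD40LG, CD4 and LTB were well above background in all 60 channels, IL2RA in 59, ICOS in 58 and TNFRSF18 in 51. The channels that missed TNFRSF18 were all kibble channels, and at kibble week 3 only 3 of 7 showed it. None of the T cell receptor subunit genes on the marker list (CD3D, CD3E, CD3G and CD247), nor CD2, CD5 or the leukocyte gene PTPRC, was matched by symbol among the rows tested, so the T cell content was not checked by them here.

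Between weeks 3 and 9 the costimulatory genes stood higher in meat-fed dogs and IL2RA stood lower. Averaged over weeks 3, 6 and 9, 5 of the 7 genes were higher in meat than in kibble (CD28, ICOS, TNFRSF18, CD40LG and LTB), IL2RA was lower, and CD4 did not pass. These are 6 of 7 calls at an adjusted p under 0.05 by limma, against 14.9% of all 25950 genes and accessions tested (6.97% higher and 7.95% lower). The members and comparisons were chosen with earlier results of these data known. Counts of members or their probes against all rows are therefore descriptions and no independent support. The median of the 7 differences was 0.19 on the log2 scale, against a median of 2.7e-05 over everything tested. All differences below are log2 ratios, meat minus kibble or later minus earlier week, and single-array ratios are given after the fitted dye effect of the gene was taken out. In bulk RNA, fewer cells of a type and less RNA per cell cannot be told apart.

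CD28 was higher on meat. Its ratios of meat over kibble were 0.40, -0.22 and 0.31 at week 3, then 0.38, 0.29, 0.09 and 0.33 at week 6, and 0.26, -0.01, 0.31 and 0.51 at week 9. Thus 9 of the 11 arrays lay above 0 and the exceptions were 1 array at week 3 and 1 at week 9. The fitted mean difference was 0.25 ± 0.05 (SE), a fold of 1.19, with an adjusted p of 0.00277. CD28 was also the member with a dye effect, 0.13 ± 0.04 higher in Cy5 than in Cy3 (adjusted p = 0.0149).

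ICOS changed the same way by a smaller amount. Its ratios were 0.47, -0.05 and 0.12 at week 3, -0.11, 0.21, 0.12 and 0.37 at week 6, and 0.27, 0.10, 0.46 and 0.09 at week 9. At week 9 all 4 arrays lay above 0, and over the 3 weeks 9 of 11 did. The fitted difference was 0.19 ± 0.04 (fold 1.14, adjusted p = 0.00346), and it was 0.40 with the Feature Extraction processed signals, with the call kept.

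TNFRSF18, the dimmest member, had the smallest difference of the 6 that passed. Its ratios were 0.11, 0.02 and 0.20 at week 3, 0.39, 0.06, 0.03 and 0.36 at week 6, and 0.19, 0.18, 0.12 and -0.01 at week 9. The values were small, but 10 of 11 arrays lay above 0 and the remaining one just below it. The fitted difference was 0.15 ± 0.05 (fold 1.11, adjusted p = 0.0235). It was 0.51 with the processed signals, and the call was lost with median centring in place of loess (0.14, adjusted p = 0.248), with the slide as a fixed block (adjusted p = 0.0628) and without any 1 of 4 arrays (meat/kibble week 3 array 2, kibble/meat week 6 array 1, meat/kibble week 6 array 2 and kibble/meat week 9 array 2, adjusted p 0.0526 to 0.105).

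The ligand CD40LG was higher on meat. Its brighter probe gave 0.52, -0.11 and 0.71 at week 3, 0.62, 0.74, -0.02 and 0.52 at week 6, and 0.22, -0.40, 0.43 and 0.42 at week 9. There were 8 of 11 arrays above 0, with the low array at week 9 far from its companions. The fitted difference was 0.33 ± 0.09 (fold 1.26, adjusted p = 0.0174), and leaving out 1 array ended the call for meat/kibble week 3 array 2 and for kibble/meat week 6 arrays 1 and 2 (adjusted p 0.0556 to 0.0681).

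LTB had ratios of 0.56, 0.12 and 0.54 at week 3, then 0.38, 1.01, -0.01 and 0.23 at week 6, and 0.09, 0.10, 0.03 and 0.50 at week 9. All but 1 of the 11 arrays lay above 0, and a single week 6 array carried the highest value. The fitted difference was 0.34 ± 0.10 (fold 1.27, adjusted p = 0.0180). Without that array (kibble/meat week 6 array 2) it was 0.25 with an adjusted p of 0.0984, without kibble/meat week 3 array 1 it was 0.32 with an adjusted p of 0.0572, and with median centring it was 0.41 with an adjusted p of 0.0978.

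IL2RA went the other way. Its brighter probe gave 0.05, -0.81 and -0.64 at week 3, -1.07, -0.25, -0.14 and -0.76 at week 6, and 0.03, -0.79, -0.13 and -0.14 at week 9. A pair of arrays at week 3, a pair at week 6 and 1 array at week 9 had the large negative ratios, and 9 of 11 were below 0. The fitted difference was -0.40 ± 0.09, meat being 1.32-fold lower than kibble (adjusted p = 0.00252), and it was -0.78 with the processed signals.

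CD4 showed no diet difference that passed the test, with the largest scatter among the members. Its ratios were -0.19, -0.47 and 0.86 at week 3, -0.20, -0.02, 0.83 and -0.41 at week 6, and 0.64, -0.57, 0.47 and -0.32 at week 9. Each week held arrays well above and well below 0. The fitted difference was 0.06 ± 0.18 (95% interval -0.31 to 0.44, adjusted p = 0.890), and the residual SD of CD4, 0.65, exceeded that of 98.7% of the genes and accessions tested.

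**Figure D1:**
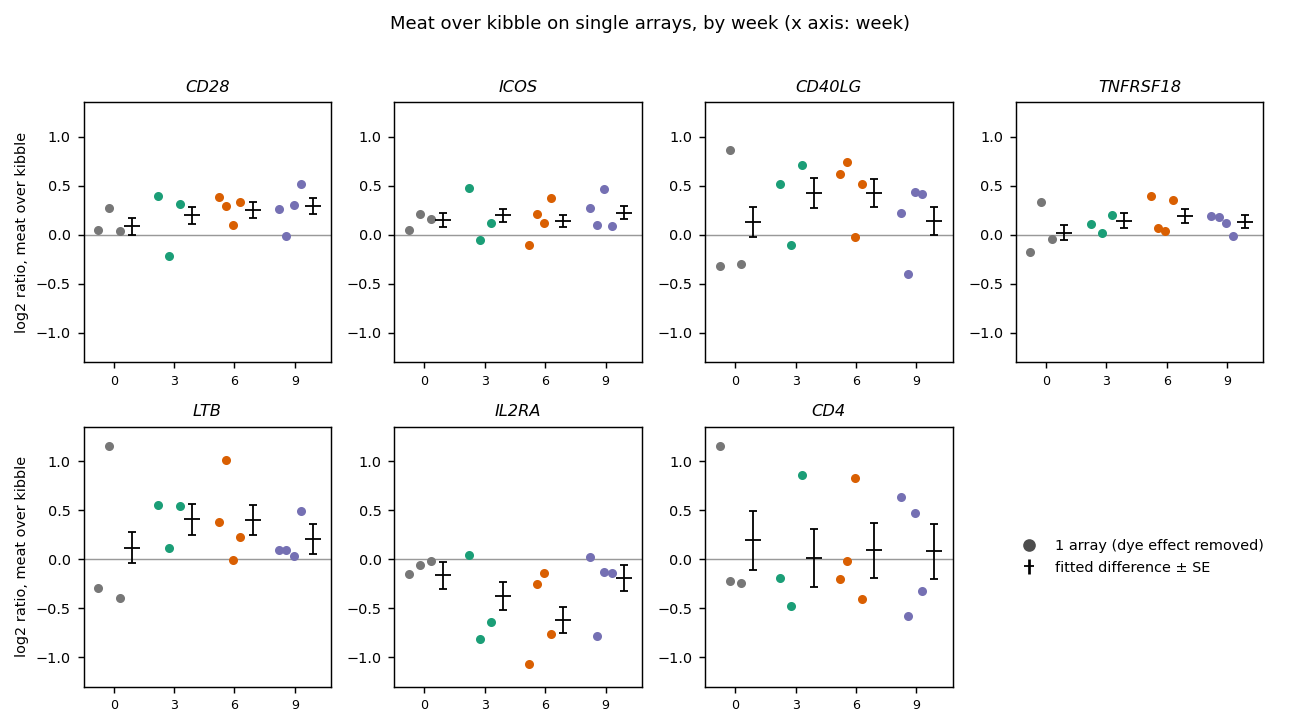
Log2 ratio of meat over kibble (vertical axis) at weeks 0, 3, 6 and 9 (horizontal axis) for each gene. Points are single arrays after removal of the fitted dye effect, and the black marks are fitted differences ± SE from all 30 arrays. The fitted marks of CD28, ICOS, CD40LG, TNFRSF18 and LTB lie above 0 at every week, those of IL2RA below 0, and the CD4 arrays scatter on both sides.

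The 11 meat-over-kibble arrays of weeks 3 to 9, which were all scanned in the same session, were also fitted alone. That fit left out the week 0 and time arrays, and so had fewer residual degrees of freedom than the main fit. The differences hardly moved (CD28 0.24, ICOS 0.19, TNFRSF18 0.15, CD40LG 0.34, LTB 0.34, IL2RA -0.43), but only LTB then passed (adjusted p = 0.0394). The adjusted p was 0.0573 for CD28, 0.0930 for ICOS, 0.0591 for TNFRSF18, 0.0843 for CD40LG and 0.0525 for IL2RA.

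By single week the differences were seldom past the threshold. At week 3 limma called 0 of 7 genes (6.09% of all rows called) and at week 9 also 0 of 7 (0.582% of all rows called). An unadjusted p under 0.05 was reached by 5 of 7 genes at week 3, against 5670 of 25950 rows. At week 9 it was reached by 2 of 7, against 2721 of 25950 rows. At week 6 only IL2RA passed, 1.54-fold lower in meat (-0.62 ± 0.13, adjusted p = 0.00672), and 6.23% of all rows were called. In that week 6 of 7 genes had an unadjusted p under 0.05, against 5045 of 25950 rows. IL2RA at week 6 missed the threshold without kibble/meat week 6 array 1 (-0.48, adjusted p = 0.109), with the slide as a fixed block (-0.55, adjusted p = 0.0507) and with the meat-over-kibble arrays of that week alone (adjusted p = 0.198). Leaving out meat/kibble week 3 array 1 brought 3 genes past the threshold at week 3, CD28 at 0.35, ICOS at 0.29 and CD40LG at 0.62. The share of all rows called at week 3 without that array was not taken.

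The fitted size by week differed among the genes without a test that separated the weeks. CD40LG was 0.43 ± 0.15 and 0.42 ± 0.14 at weeks 3 and 6 and 0.13 ± 0.14 at week 9, and LTB was 0.41 ± 0.16, 0.40 ± 0.15 and 0.21 ± 0.15. CD28 was 0.20 ± 0.09, 0.25 ± 0.08 and 0.29 ± 0.08 at these weeks, and ICOS was 0.20 ± 0.07, 0.14 ± 0.06 and 0.23 ± 0.06. For the week 6 minus week 3 change of the diet difference, limma called 0 of 7 genes and 0% of all rows, with 0 of 7 at an unadjusted p under 0.05.

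At week 0 no member passed. Limma called 0 of 7 genes at week 0 (1 unadjusted, 0.312% of all rows called), with fitted differences of 0.08 ± 0.09 for CD28, 0.15 ± 0.07 for ICOS, 0.02 ± 0.08 for TNFRSF18, 0.13 ± 0.15 for CD40LG, 0.12 ± 0.16 for LTB, -0.16 ± 0.14 for IL2RA and 0.19 ± 0.30 for CD4. ICOS had the unadjusted p under 0.05, as had 2306 of 25950 rows, with 3 of 3 ICOS arrays above 0 (0.05, 0.21 and 0.16, adjusted p = 0.539). The difference between the mean of weeks 3, 6 and 9 and week 0 passed for 0 of 7 genes by limma and for 0% of all rows. Unadjusted, 0 of 7 genes and 2346 of 25950 rows had a p under 0.05. The dimmer LTB probe gave -0.01 ± 0.15 at week 0. The change from week 0 was 0.16 for CD28 (95% interval -0.04 to 0.36), 0.04 for ICOS (-0.12 to 0.19), 0.22 for LTB (-0.14 to 0.58) and -0.23 for IL2RA (-0.55 to 0.08).

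A single array weighed heavily at week 0. Meat/kibble week 0 array 1 gave 1.16 for LTB, where the other arrays of that week gave -0.29 and -0.40, and it gave 0.86 for CD40LG, where they gave -0.32 and -0.30. For TNFRSF18 it gave 0.33, against -0.17 and -0.04. Without this array the fitted week 0 differences were -0.26 for LTB, -0.15 for CD40LG and -0.09 for TNFRSF18, and with array weights these 3 were also below 0. Without it, the change of the LTB difference from week 0 to the mean of weeks 3, 6 and 9 was 0.58 and passed (adjusted p = 0.0401), and the number of members called at week 6 was 5. The share of all rows called without this array was not taken for these comparisons.

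Over time within a diet only CD4 passed the test. From week 0 to week 9 on meat, CD4 fell by 0.90 ± 0.27 on the log2 scale, a fold of 1.86 (adjusted p = 0.0426). An unadjusted p under 0.05 was reached by 2 of 7 members and by 5502 of 25950 rows. CD4 was the only member called of 7 (8.04% of all rows called). Its ratios of week 9 over week 0 were -0.12, -2.01, -0.70 and -0.66 on meat and -0.31, -0.77, -0.84 and -1.33 on kibble. All 8 arrays lay below 0, with 1 meat array far below the rest. On kibble the fitted value was -0.78 ± 0.27 with an adjusted p of 0.0570, and the difference between the diets was -0.11 ± 0.34 (adjusted p = 0.953), so the call on meat alone does not show a difference between the diets.

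The CD4 calls moved with the processing. On meat it held in 28 of 47 alternative fits and in 20 of the 30 that left out 1 array, and without meat week 9/meat week 0 array 2 the value was -0.65 with an adjusted p of 0.264. On kibble the value passed in 10 of 47 alternatives, among them the one without the pair of slide 1 arrays that stood apart (-0.97, adjusted p = 0.0310).

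On kibble from week 0 to week 9, limma called 0 of 7 members, against 13.6% of all rows. An unadjusted p under 0.05 was reached by 5 of 7 members and by 7101 of 25950 rows. ICOS had ratios of -0.11, -0.23, -0.28 and -0.04 (fitted -0.17 ± 0.06, adjusted p = 0.0723), CD28 had -0.22, -0.22, -0.32 and -0.07 (-0.18 ± 0.08, adjusted p = 0.142) and TNFRSF18 had -0.06, -0.29, -0.20 and -0.18 (-0.17 ± 0.07, adjusted p = 0.118). For each of these receptors all 4 kibble arrays were below 0. On meat ICOS was also below 0 on 4 of 4 arrays (-0.10 ± 0.06, adjusted p = 0.436). TNFRSF18 was below 0 on 3 of 4 meat arrays (-0.05 ± 0.07, adjusted p = 0.750) and CD28 on 1 of 4 (0.02 ± 0.08, adjusted p = 0.914). Before the dye effect was taken out, CD28 averaged -0.08 on the kibble arrays, with 3 of 4 below 0. On the meat arrays it then averaged -0.08, with 4 of 4 below 0. IL2RA was above 0 on all 4 kibble arrays, at 0.20, 0.36, 0.11 and 0.35 (0.32 ± 0.13, adjusted p = 0.101), and on 3 of 4 meat arrays, at -0.07, 0.66, 0.51 and 0.36 (0.30 ± 0.13, adjusted p = 0.178). With the processed signals IL2RA passed in both diets (0.82 on meat and 0.97 on kibble, adjusted p 0.0435 and 0.00777), and ICOS (-0.38) and TNFRSF18 (-0.53) passed on kibble. With median centring CD28 (-0.41, adjusted p = 0.00633), LTB (-0.65, adjusted p = 0.0298) and CD4 (-1.03, adjusted p = 0.00892) passed on kibble.

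From week 3 to week 6 limma called 0 of 7 members on meat (1 unadjusted, 2.25% of all rows called) and 0 of 7 on kibble (0 unadjusted, 0.0347% of all rows called). Of all 25950 rows, 4775 on meat and 4550 on kibble had an unadjusted p under 0.05. IL2RA lay below 0 on all 4 meat arrays, at -0.19, -0.42, -0.67 and -0.25 (fitted -0.31 ± 0.13, adjusted p = 0.191), and on kibble it gave 0.19, -0.18, 0.17 and -0.19. CD4 reached 1.66 and 1.06 on a pair of meat arrays and -0.53 and 0.17 on the others (0.55 ± 0.27, adjusted p = 0.287), with 0.75, 0.32, 0.57 and 0.10 on kibble (0.47 ± 0.27, adjusted p = 0.372). For the change of the diet difference from week 0 to week 9, limma called 0 of 7 members and 0% of all rows. An unadjusted p under 0.05 was reached by 1 of 7 (CD28, 0.21 ± 0.10, adjusted p = 0.635) and by 2034 of 25950 rows. The CD28 arrays of week 9 over week 0 averaged -0.08 in both diets before the dye effect was taken out. After it was, they averaged -0.21 on kibble and 0.05 on meat.

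**Figure D2:**
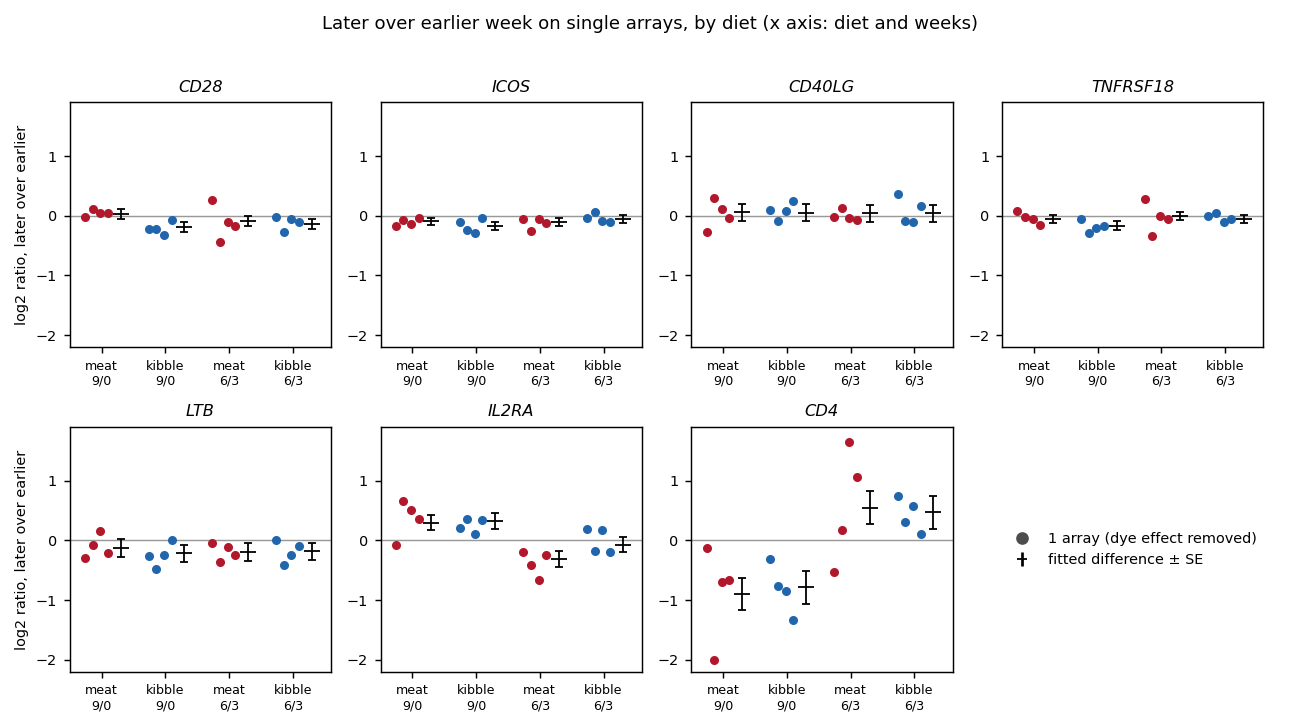
Log2 ratio of the later over the earlier week (vertical axis) for meat and kibble, week 9 over week 0 and week 6 over week 3 (horizontal axis), for each gene. Points are single arrays after removal of the fitted dye effect, and the black marks are fitted differences ± SE. All CD4 arrays of week 9 over week 0 lie below 0, down to -2.01 on meat, while the other genes stay closer to 0.

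The genes with 2 probes allowed a check within the array, although both probes see the same RNA and are no replicates. Taken one by one, 9 of the 10 probes passed in the mean of weeks 3, 6 and 9 (15.8% of all 31691 probes did), the CD4 probe being the exception. The dimmer probe gave 0.20 ± 0.07 for CD40LG (adjusted p = 0.0432), 0.30 ± 0.09 for LTB (adjusted p = 0.0228) and -0.41 ± 0.09 for IL2RA (adjusted p = 0.00405). The IL2RA probes also passed together at week 6, the dimmer one at -0.64 ± 0.14 (adjusted p = 0.00998).

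Over the 30 arrays the ratios of the 2 probes correlated at 0.96 for IL2RA, 0.95 for LTB and 0.71 for CD40LG (Pearson, a description over arrays that share samples). Their signs, before the dye effect was taken out, matched on 27, 24 and 21 arrays for these genes, and the fitted signs matched in 12, 11 and 9 of 12 comparisons. The CD40LG probes parted most. On kibble/meat week 6 array 1 they gave 0.62 and -0.02, on kibble/meat week 9 array 2 they gave -0.40 and 0.05, and from week 0 to week 9 on kibble the fitted values were 0.05 ± 0.14 and -0.14 ± 0.10.

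**Figure D3:**
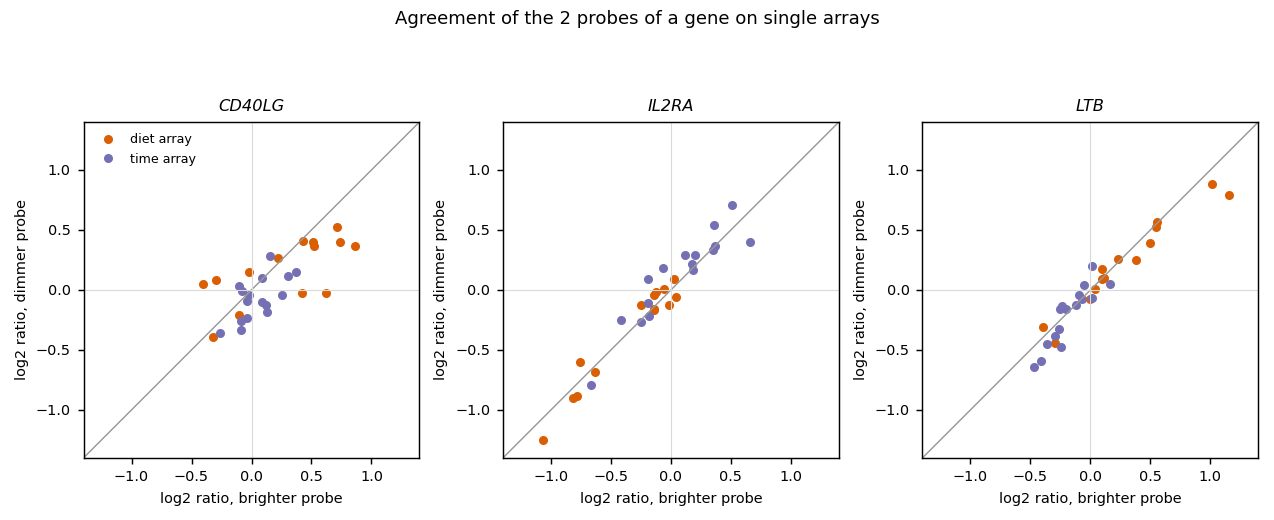
Log2 ratio of the dimmer probe (vertical axis) against the brighter probe (horizontal axis) of CD40LG, IL2RA and LTB on 30 arrays, as meat over kibble (diet arrays) or later over earlier week (time arrays). The grey diagonal marks equal values. IL2RA and LTB lie close to it and CD40LG scatters more widely.

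Levels per group, as normalised log2 intensity of each channel, overlapped between the diets within each week for every gene. Some other groups did not overlap. For ICOS the lowest meat week 0 channel was at 7.39 and the highest kibble week 3 channel at 7.34. For CD4 the lowest kibble week 0 channel was at 8.81 and the highest kibble week 3 channel at 8.57. CD28 was highest at meat week 9 (8.98 ± 0.16, SD, n = 8) and lowest at kibble week 3 (8.59 ± 0.21, n = 7), and its 4 meat groups ranked above its 4 kibble groups. The same ranking of diets held for ICOS, from 7.59 ± 0.11 at meat week 0 to 7.09 ± 0.15 at kibble week 3, for CD40LG, from 10.01 ± 0.28 at meat week 6 to 9.41 ± 0.38 at kibble week 0, and for LTB, from 14.71 ± 0.21 at meat week 9 to 14.10 ± 0.53 at kibble week 6. These orders pool both kinds of array, and on the meat-over-kibble arrays alone only CD28 kept the ranking. There CD40LG averaged 9.72 at meat week 0 and 9.77 at kibble week 9. ICOS averaged 7.39 at meat week 3 and 7.46 at kibble week 0, and LTB 14.493 at meat week 0 and 14.494 at kibble week 9.

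TNFRSF18 spanned only 0.27, from 7.04 ± 0.29 at meat week 0 to 6.77 ± 0.19 at kibble week 3. IL2RA ran from 7.71 ± 0.21 at kibble week 6 to 7.05 ± 0.24 at meat week 0, with the kibble groups of weeks 3, 6 and 9 on top. CD4 ran from 9.48 ± 0.42 at kibble week 0 to 8.38 ± 0.17 at kibble week 3, with the week 0 groups of both diets on top. For every gene, none of the 7 steps between neighbouring group means exceeded the larger of their SDs, so no neighbours in these orders differed beyond their spread. Levels are set across slides and scan sessions, whereas ratios are taken within an array.

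**Figure D4:**
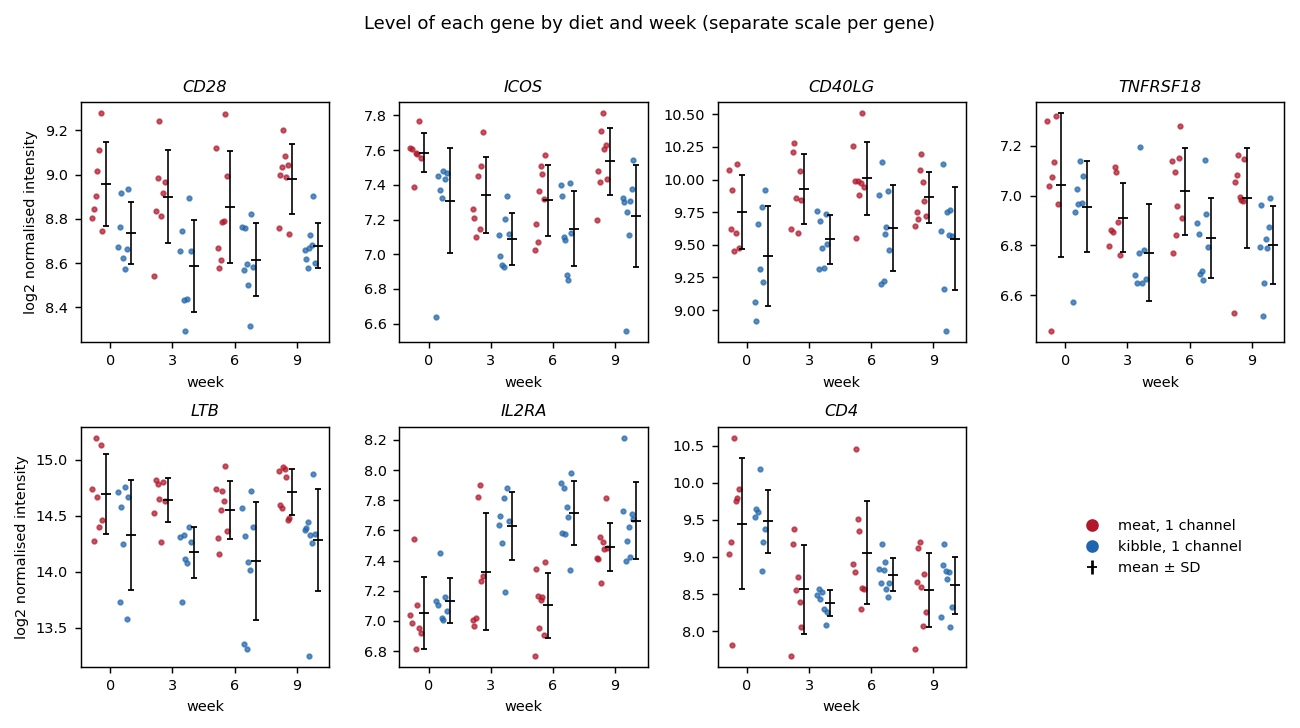
Normalised log2 intensity (vertical axis, its own scale per gene) of each channel by week (horizontal axis), with meat in red left of kibble in blue. Black marks are means ± SD over 7 or 8 channels. Meat and kibble of the same week overlap for every gene, and the meat means of CD28, ICOS, CD40LG and LTB lie above the kibble means at each week.

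Across the 30 arrays the members fell into 3 sets by their dye-adjusted ratios. Pairs among CD28, ICOS, TNFRSF18, CD40LG and LTB correlated at 0.43 to 0.77, highest for CD40LG with LTB. IL2RA correlated with these 5 genes at -0.51 to -0.18, and CD4 at -0.09 to 0.18. The arrays share samples and carry the group differences, so these values are descriptions.

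The named genes most like each member in ratio over the 30 arrays, among 1080 with a symbol, differed between the sets. For CD28 they were the potassium channel gene KCNA2 (0.74), the shared cytokine receptor chain IL2RG (0.74) and JPT1 (0.68), and for TNFRSF18 they were the chemokine receptor CCR9 (0.74), KCNA2 (0.71) and ZNF622 (0.69). ICOS was most like the nucleotide enzymes NME1 (0.86) and TYMS (0.82) and the phosphatase ACP5 (0.83). CD40LG was nearest to CD52, a lymphocyte surface glycoprotein (0.70), SELENOH (0.70) and the serotonin receptor HTR2A (0.69), and LTB to the ribosomal gene RPS27A (0.80), PPIAP1 (0.73) and IL2RG (0.72). Of these genes KCNA2 stood higher in meat over weeks 3, 6 and 9 by 0.34 ± 0.06 (adjusted p = 0.000332), TYMS by 0.38 ± 0.08 (adjusted p = 0.00213) and RPS27A by 0.31 ± 0.05 (adjusted p = 0.000364). JPT1 (0.09 ± 0.06, adjusted p = 0.414) and CD52 (0.31 ± 0.16, adjusted p = 0.225) did not pass in that comparison.

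IL2RA and CD4 had closer companions than the others. IL2RA followed P2RY12, the platelet ADP receptor, at 0.96, PDE5A, a phosphodiesterase, at 0.94 and TFPI, the inhibitor of the tissue factor pathway, at 0.94. All 3 were lower in meat over weeks 3, 6 and 9, P2RY12 with a log2 difference of -0.57 ± 0.11 (adjusted p = 0.000881) and TFPI with a log2 difference of -0.87 ± 0.18 (adjusted p = 0.00183). CD4 followed MSRB1 at 0.94, CXCR2, a chemokine receptor of neutrophils, at 0.93 and IL18BP at 0.92, none of which passed in that comparison.

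Marker genes of other blood cells moved with the diet too. Of all rows tested, 7.95% were called lower in meat in the mean of weeks 3, 6 and 9. Over weeks 3, 6 and 9, 5 of 5 measured platelet markers were lower in meat (CLU -0.79 ± 0.10, GP1BA -1.31 ± 0.18), as were 4 of 5 monocyte markers (CYBB -0.69 ± 0.10), 5 of 7 markers of cytotoxic T and natural killer cells (CCL5 -0.92 ± 0.15) and 3 of 5 neutrophil markers (CAMP -2.54 ± 0.29). Of the 2 measured markers of mast cells and basophils, MS4A2, a chain of the high-affinity IgE receptor, was lower (-1.17 ± 0.11, adjusted p = 2.97e-07) and FCER1A did not pass. MS4A2 was also lower at week 0 (-1.17 ± 0.18, adjusted p = 0.00265), as was ELANE, a neutrophil protease (-0.31 ± 0.07, adjusted p = 0.0462), and the median of the 5 platelet markers at week 0, none of which passed, was -0.61. The only measured B cell marker, MS4A1, did not pass (0.01 ± 0.19). In these weeks the mean level of the platelet list ran from 9.88 to 11.52 over the meat channels, against 11.09 to 12.65 over the kibble channels. That of the monocyte list ran from 10.76 to 12.14 in meat and from 11.48 to 12.64 in kibble, that of the cytotoxic list from 9.01 to 10.51 in meat and from 9.34 to 10.53 in kibble, that of the neutrophil list from 9.91 to 11.58 in meat and from 10.09 to 12.92 in kibble, and that of the mast cell and basophil list from 9.12 to 10.07 in meat and from 9.77 to 11.22 in kibble.

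The ratio of IL2RA correlated with the mean ratio of the 5 platelet markers at 0.90 over the 30 arrays (0.91 over the 14 meat-over-kibble arrays and 0.88 over the 16 time arrays), and with single platelet markers at 0.85 to 0.89. With the cytotoxic list it correlated at 0.72 and with the monocyte list at 0.43. LTB correlated with the mean of the monocyte markers at -0.80, and CD28, ICOS, TNFRSF18 and CD40LG did so at -0.59, -0.67, -0.60 and -0.64. ICOS correlated with the mean of the mast cell and basophil list at -0.72, with its gene MS4A2 at -0.75 and with FCER1A at -0.30. CD4 correlated with S100A8, a neutrophil calcium-binding protein, at 0.85, but with MMP9, another neutrophil marker, at -0.04 and with the mean of the neutrophil list at 0.30 (0.18 over the 14 meat-over-kibble arrays and 0.78 over the 16 time arrays). The part of these cells in the diet differences of the members and in the CD4 change over time was not tested.

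**Figure D5:**
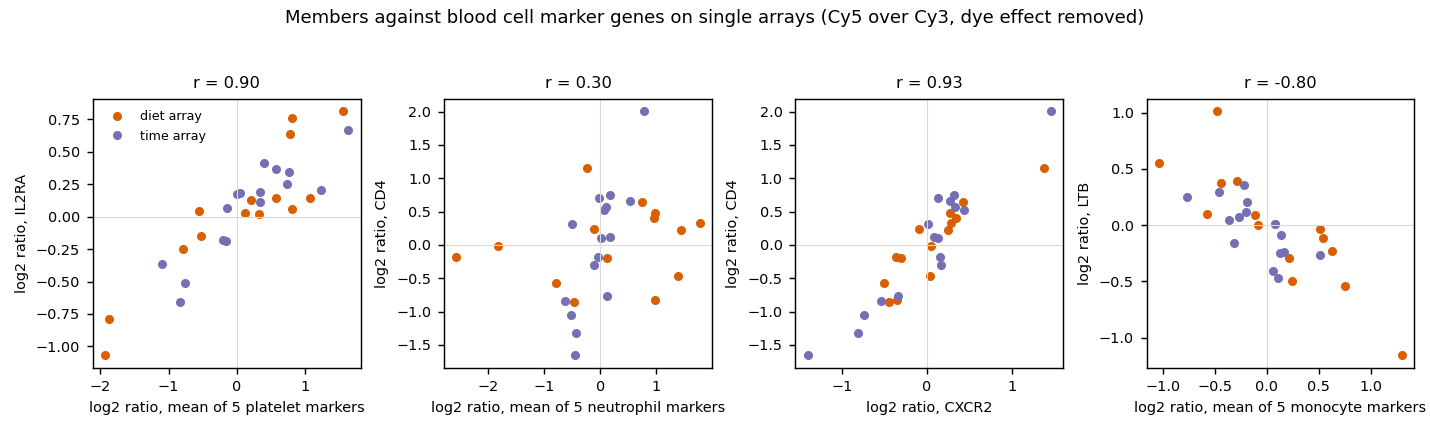
Dye-adjusted log2 ratios (Cy5 over Cy3) of IL2RA, CD4 and LTB (vertical axes) against marker genes of other blood cells (horizontal axes) on 30 arrays, with diet arrays in orange and time arrays in purple. IL2RA is higher with the mean of the 5 platelet markers (r = 0.90), CD4 with CXCR2 (r = 0.93) less with the neutrophil list (r = 0.30, with 0.18 on the diet arrays and 0.78 on the time arrays), and LTB is lower where the monocyte list is higher (r = -0.80).

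Among 49 partners of these genes in T cell receptor signalling and costimulation, 15 were measured under a symbol. Over weeks 3, 6 and 9, 1 was higher in meat, 3 were lower and 11 did not pass, against 6.97% higher and 7.95% lower among all rows. The median difference of the partners was -0.0039, and the array's median was 2.7e-05. IL2RG, the chain that pairs with IL2RA in the interleukin-2 receptor, was higher by 0.12 ± 0.04 (adjusted p = 0.0259). The adhesion receptor CD44 (-0.50 ± 0.09, adjusted p = 0.000304), the cytotoxic coreceptor CD8A (-0.45 ± 0.11, adjusted p = 0.00864) and CD80, a ligand of CD28 (-0.29 ± 0.09, adjusted p = 0.0299), were lower.

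Other partners, named for their relation to a member, did not pass. The other CD28 ligand, CD86, gave -0.11 ± 0.10 (adjusted p = 0.537), the CD40LG receptor CD40 gave -0.0039 ± 0.10 (adjusted p = 0.990), and IL2RB, the beta chain beside IL2RA, gave -0.09 ± 0.08 (adjusted p = 0.495). CTLA4, the inhibitory relative of CD28, had 9 of 11 arrays above 0 and a difference of 0.40 ± 0.19 that did not pass (adjusted p = 0.185), and FOXP3, the transcription factor of regulatory T cells, gave 0.03 ± 0.04 (adjusted p = 0.738). In single comparisons CD44 passed at week 3 (-0.52 ± 0.14, adjusted p = 0.0275), at week 6 (-0.68 ± 0.13, adjusted p = 0.00384) and from week 0 to week 9 on kibble (0.55 ± 0.13, adjusted p = 0.00541), and CD8A passed at week 3 (-0.69 ± 0.19, adjusted p = 0.0299).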

How the data were processed

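PBMC RNA from 30 two-colour Agilent arrays was analysed from the scanner files. Per the labels' protocols 200 ng of RNA was amplified and labelled. Per the file headers the spots were read with Agilent Feature Extraction 10.10.1.1, which gives the deposited median spot and local background intensity in each channel. The authors' deposited log2 ratios, for which the submitters' processing notes name limma, served as an alternative; their correlation with the present ratios was 0.858 to 0.995 on single arrays.

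Background was corrected by normexp (offset 50) and ratios were normalised by loess. Flagged spots (979) were left out. A probe was kept if well above background in 7 or more of 60 channels (31691 probes), and the brightest probe stood for each gene or accession (25950 rows, 1087 with a symbol). The limma 3.58.1 fit in R 4.3.3 used a term per group of diet and week and a dye term, with 23 residual degrees of freedom. Tests were two-sided, with Benjamini-Hochberg adjustment over all rows per comparison and a threshold of 0.05. Levels are log2 intensities of single channels after quantile normalisation of the mean log intensities of the arrays. The number of arrays limits the precision.

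Weeks 0 and 9 share no array with weeks 3 and 6, so changes were fitted within each pair of weeks. Alternatives covered background, source of values, normalisation, filter, dye, slide, replicate number, moderation, probes and arrays left out. The scripts were tested on simulated data. Named were all members, passing pathway and marker genes by p, and the 3 named genes most correlated with each member. The members, lists and comparisons were chosen with earlier results of these data known.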

Additional observations from a re-analysis of the deposited data

Results flagged for a closer look

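In the ratio of meat over kibble at week 9, LTB on meat/kibble week 9 array 2 was 0.50, far from the other arrays of that week at 0.03 to 0.10. It was the only such value among 42 sets of 4 arrays (7 genes in 6 comparisons), where chance alone marks about 1 in 20. The genes share their arrays, so these sets are not independent.

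Levels held more single channels far from their group, in 11 of 56 groups of gene, diet and week. Of these, 6 came from the pair of slide 1 arrays that stood apart. On kibble week 0/kibble week 9 array 1, ICOS stood at 6.64 in the kibble week 0 channel (others 7.32 to 7.48) and at 6.56 in the kibble week 9 channel (others 7.11 to 7.55), and TNFRSF18 stood at 6.57 in the kibble week 0 channel (others 6.93 to 7.14). On meat week 9/meat week 0 array 1, TNFRSF18 stood at 6.53 in the meat week 9 channel (others 6.98 to 7.16) and at 6.46 in the meat week 0 channel (others 6.97 to 7.32), and IL2RA stood at 7.54 in the meat week 0 channel (others 6.81 to 7.11).

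On other arrays, LTB was at 13.25 in a kibble week 9 channel (others 14.26 to 14.88), CD28 at 8.90 in another (others 8.58 to 8.73) and IL2RA at 8.21 in yet another (others 7.40 to 7.73). TNFRSF18 was at 7.19 in a kibble week 3 channel (others 6.65 to 6.78), and IL2RA was at 7.45 in a kibble week 0 channel (others 7.01 to 7.16).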

How the results depend on the processing

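Of 3969 values for single member genes under alternatives, 3734 kept their direction and side of the threshold, 39 lost and 48 gained a call, 0 reversed as calls and 148 without a call changed sign. For the mean of weeks 3, 6 and 9 the number of members called was 6, between 4 and 6 without 1 array, 1 with the arrays of the 2 diets alone, and 6 with the replicate block. Over all rows that comparison had 1808 higher and 2062 lower, against 540 and 540 with median centring and 1145 and 1243 with the arrays of the 2 diets alone. With median centring 5 of 10 probes passed, against 9.

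At week 6 the count was 1, between 0 and 5 without 1 array, 0 with the slide fixed and with the 2 diets alone, 2 with median centring, 3 with the loop of weeks 3 and 6 alone and 6 with array weights. At week 3 it was 0, and 0 to 3 without 1 array. From week 0 to week 9 on kibble it was 0, and 0 to 2 without 1 array. It was 3 with processed signals, median centring or array weights, 2 with no background correction, and 1 with the deposited values, no dye term, the loop alone or, chosen after seeing the data, both slide 1 arrays that stood apart left out. On meat it was 1, and 0 to 1 without 1 array. It was 0 with no background correction, deposited values, median centring, scaling, no filter, slide fixed, the loop alone or a dye term per scan session (also chosen after seeing the data). The change of the diet difference from week 0 was 0, and 0 to 1 without 1 array. The share of all rows called under an alternative was taken only for the mean of weeks 3, 6 and 9. Counts of members under alternatives in the other comparisons therefore have no background share beside them. Causes were not tested.

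Same-numbered time arrays did not all deviate together: 8 of 24 pairs correlated over 0.1 (range -0.80 to 0.42) and 5 did best with their own number. Between the kibble sets, numbers 1, 2 and 4 correlated at 0.39 to 0.42, each best with its own number, and number 3 at -0.36, a hint from the data and not the design, so the replicate block is given here only. Dim TNFRSF18, ICOS and IL2RA limit what ratios near background can show.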

Other observations

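After the fitted group and dye terms were taken out, what was left on the 30 arrays correlated at 0.78 between CD40LG and LTB, the 2 ligands. IL2RA, whose ratios correlated at -0.18 with those of CD28 and -0.20 with those of ICOS, had residuals that correlated with theirs at 0.41 and 0.48. These are values over arrays that share samples.

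Single arrays moved several members at once. On meat/kibble week 3 array 1, CD28 (-0.22), ICOS (-0.05) and CD40LG (-0.11) were below 0 and IL2RA had its lowest value of that week (-0.81), while LTB stayed above 0 (0.12). On kibble/meat week 9 array 2, CD40LG (-0.40), IL2RA (-0.79) and CD4 (-0.57) were low together.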
